A study of Mus musculus with 21 samples.

Results

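Of 68362 regions of open chromatin found in the livers of individual male mice, 558 had a peak mainly in livers with high STAT5 activity. They were chosen by measured presence: the peaks of 18 lists were merged wherever they shared 1 bp or more, and a member needed peaks from at least 6 of the 8 STAT5_High livers and no more than 2 of the 10 STAT5_Low livers. All livers came from untreated, pituitary-intact CD-1 (ICR) males aged 8 to 10 weeks, 1 mouse per library, and the peaks mark sites cut by DNase I (DNase-seq). The classes rest on a gel shift assay of STAT5 DNA binding in an extract of the same liver, so a class describes 1 moment in each mouse. The submitters set aside 3 further livers, 2 classed high and 1 classed low, whose cutting profile looked like that of the opposite class; these are not analysed here, and for 2 of them the treatment label contradicts the title. Membership of a class thus depended partly on DNase-seq itself, and the presence of members in the classes is given below as a description, without a test over the members.

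STAT5 is a transcription factor held inactive in the cytoplasm until a receptor-bound Janus kinase phosphorylates it, after which it pairs, enters the nucleus and binds DNA at a palindrome, TTC and GAA with 3 bases between. In the male rodent liver the main signal is growth hormone, which the pituitary releases in pulses, so nuclear STAT5 rises and falls with each pulse. Known hepatic targets include the growth factor gene Igf1, the feedback inhibitors Cish, Socs2 and Socs3, the repressor Bcl6 and many genes that differ between the sexes.

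The sequences of members that carry the palindrome and lie near genes of these groups, or were among the strongest, are shown first. Each is 89 bases of the mm9 (NCBIM37) reference, plus strand, centred on the match nearest the strongest summit, with matches to TTCNNNGAA in capitals. The pattern is its own reverse complement, so 1 search covers both strands.
St6gal1 (chr16:23326852-23326940): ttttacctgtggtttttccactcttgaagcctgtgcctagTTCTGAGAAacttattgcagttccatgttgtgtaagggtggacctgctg
Grb10 (chr11:11845994-11846082): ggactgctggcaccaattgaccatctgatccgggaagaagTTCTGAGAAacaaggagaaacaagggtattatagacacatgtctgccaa
Zfp36l2 (chr17:84719951-84720039): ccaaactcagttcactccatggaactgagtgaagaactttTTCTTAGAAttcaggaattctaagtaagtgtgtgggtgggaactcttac
Igf1 (chr10:87258582-87258670): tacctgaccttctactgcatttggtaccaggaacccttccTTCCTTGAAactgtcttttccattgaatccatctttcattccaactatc
Igf1 (chr10:87325764-87325852): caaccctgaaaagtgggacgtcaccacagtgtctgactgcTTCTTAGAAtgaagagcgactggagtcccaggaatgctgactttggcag
Igf1 (chr10:87364854-87364942): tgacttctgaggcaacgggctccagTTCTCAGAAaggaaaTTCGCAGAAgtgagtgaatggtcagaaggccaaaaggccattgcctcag
Osmr (chr15:6841234-6841322): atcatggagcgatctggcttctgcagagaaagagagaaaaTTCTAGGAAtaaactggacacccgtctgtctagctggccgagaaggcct
Insr (chr8:3270259-3270347): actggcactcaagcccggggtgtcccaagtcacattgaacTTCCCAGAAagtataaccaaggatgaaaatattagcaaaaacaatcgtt
Bcl6 (chr16:24080775-24080863): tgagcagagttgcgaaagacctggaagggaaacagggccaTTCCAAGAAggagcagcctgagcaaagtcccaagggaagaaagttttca
Bcl6 (chr16:23981443-23981531): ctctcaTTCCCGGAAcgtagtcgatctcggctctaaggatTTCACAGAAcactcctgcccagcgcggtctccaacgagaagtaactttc
Cish (chr9:107200532-107200620): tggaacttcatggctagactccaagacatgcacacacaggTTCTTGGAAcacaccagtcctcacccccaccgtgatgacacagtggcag
Socs3 (chr11:117823568-117823656): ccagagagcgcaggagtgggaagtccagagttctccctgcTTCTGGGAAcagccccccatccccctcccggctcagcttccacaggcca
Cyp7b1 (chr3:18146451-18146539): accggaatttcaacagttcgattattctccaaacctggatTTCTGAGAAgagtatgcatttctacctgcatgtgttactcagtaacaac
Most of these windows hold a single match. The last of the Igf1 windows holds a pair separated by 6 bases, and the second Bcl6 window holds a pair farther apart.

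Presence in single livers followed the rule in sum but was uneven between livers. The 8 STAT5_High livers had a peak at 447, 453, 539, 282, 548, 491, 524 and 533 of the 558 members in the order of their replicate numbers, a mean of 85.5% ± 15.7 (SD, n = 8). The 10 STAT5_Low livers had one at 11, 25, 16, 37, 28, 32, 169, 48, 22 and 143, a mean of 9.52% ± 9.96 (SD, n = 10). Liver 4 was the lowest of STAT5_High and livers 7 and 10 the highest of STAT5_Low; the classes did not overlap, which the rule largely fixes. STAT5_High liver 4 alone accounted for 276 of the 647 cases in which a member lacked a peak in a STAT5_High liver (42.7%). STAT5_Low livers 7 and 10 held 312 of the 531 peaks of members in STAT5_Low livers (58.8%), and the 46 members found in both made up 27.2% of those in liver 7 and 32.2% of those in liver 10.

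Each liver was also left out of the choice in turn, with the thresholds kept as shares (75% of STAT5_High and 20% of STAT5_Low livers), and the sites chosen in the other 17 livers were looked up in it. They numbered 344 to 485. In a STAT5_High liver left out, 81.2% ± 17.8 of them had a peak (SD, n = 8; lowest 43.1%, median 86.8%, highest 97.1%), against 40.6% of all regions tested. In a STAT5_Low liver left out, 12.2% ± 11.3 did (SD, n = 10; lowest 2.87%, median 7.57%, highest 35.2%), against 52.1% of all regions tested. The share was above that of all tested regions in 8 of 8 STAT5_High livers and below it in 10 of 10 STAT5_Low livers. The livers left out here had still passed the submitters' screen on their profile.

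**Figure D1:**
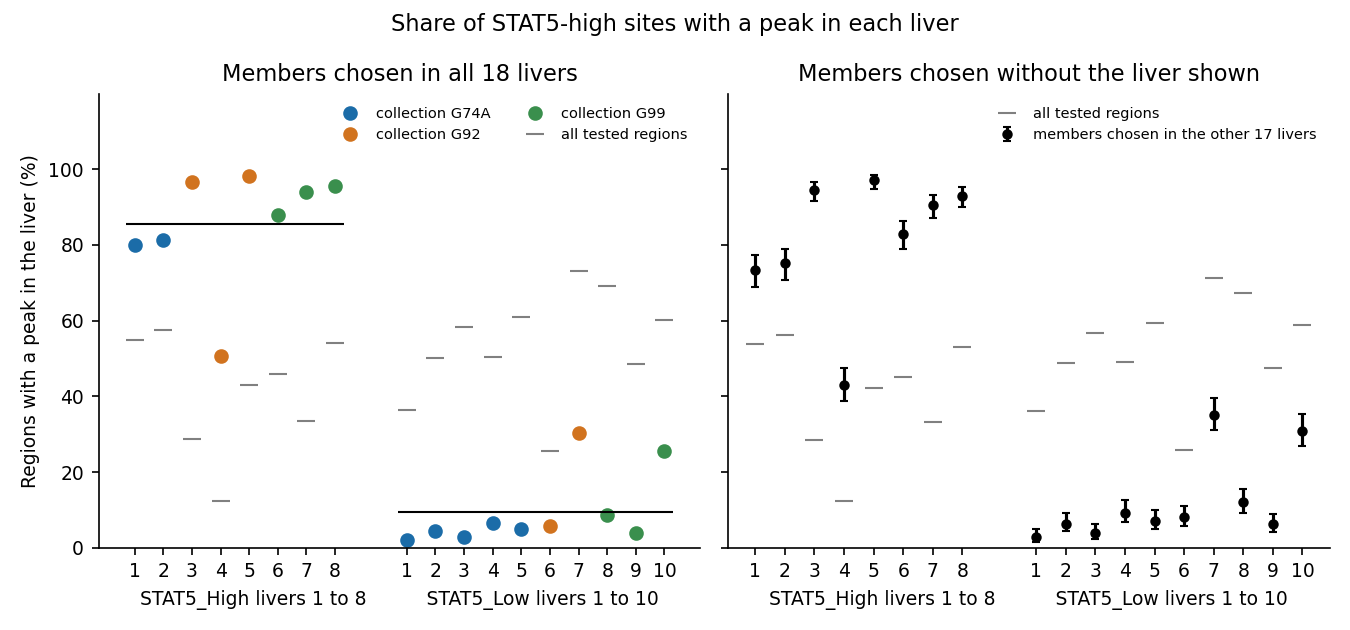
Share of sites with a peak in each liver (vertical axis, %), with STAT5_High livers 1 to 8 at the left and STAT5_Low livers 1 to 10 at the right of each panel. The left panel shows the 558 members, coloured by collection, with black lines at the class means of 85.5% and 9.52%; the right panel shows sites chosen without the liver shown, with 95% Wilson intervals, and grey dashes give all tested regions. STAT5_High liver 4 (50.5%) and STAT5_Low livers 7 (30.3%) and 10 (25.6%) stand apart from their classes in the left panel.

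Label prefixes place the livers in 3 collections whose meaning the labels do not give, and each collection held both classes. Members had a peak on average in 80.6% of the 2 STAT5_High and 4.19% of the 5 STAT5_Low livers of G74A, in 81.8% and 18.01% of the 3 and 2 livers of G92, and in 92.5% and 12.7% of the 3 and 3 livers of G99. The range of collection means was 11.8 percentage points over STAT5_High livers (exact permutation p = 0.829) and 13.8 over STAT5_Low livers (exact permutation p = 0.134), neither past the threshold of 0.05. Leaving out 1 liver changed this call in 2 cases: without STAT5_High liver 4 the range over STAT5_High livers was 10.7 (exact permutation p = 0.0381), and without STAT5_Low liver 6 that over STAT5_Low livers was 15.8 (exact permutation p = 0.0218). Pearson's r of the same share with the number of peaks in a liver's list did not pass the threshold. It was 0.67 over 8 STAT5_High livers (exact permutation p = 0.117, adjusted over 4 correlations 0.234) and 0.61 over 10 STAT5_Low livers (permutation p = 0.0588, adjusted 0.234). Spearman's rho was -0.048 (exact permutation p = 0.935) in STAT5_High and 0.64 (permutation p = 0.0538) in STAT5_Low. Without the 2 livers farthest from the median list length, r was -0.55 over 6 STAT5_High livers (exact permutation p = 0.276), so that relation rests on those livers (r was -0.60 without liver 4 alone), and 0.43 over 8 STAT5_Low livers (exact permutation p = 0.272). With tags in place of peaks r was 0.31 in STAT5_High (exact permutation p = 0.461) and 0.037 in STAT5_Low (permutation p = 0.896). Without the 2 livers farthest from the median number of tags, it was 0.89 over 6 STAT5_High livers (exact permutation p = 0.0347, unadjusted). Over 8 STAT5_Low livers it was then -0.18 (exact permutation p = 0.666). For the share of all tested regions, r with the number of peaks was 0.97 in STAT5_High and 0.99 in STAT5_Low.

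Depth and list length bound what absence of a peak means. Libraries held 12890880 to 23395665 tags and lists 18673 to 45144 peaks, the shortest that of STAT5_High liver 4, and a site without a peak may still be open below the caller's limit. In whole livers, a site less open in every cell cannot be told apart from one open in fewer cells. Of 19 defining hepatocyte genes, 17 had a promoter peak in all 18 livers. Of the marker genes of other liver cells, 0 of 8 for macrophages, 1 of 9 for endothelium, 0 of 9 for stellate cells, 1 of 7 for cholangiocytes and 0 of 9 for lymphocytes had one in all livers. The 58 tested regions assigned to those 5 lists held 0 members, too few regions to set apart from the 3.57% of all tested regions that were members.

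All 558 members were among the 15631 regions that a per-region test could assess, those occupied in 5 to 13 of the 18 livers, and they made up 3.57% of them. Fisher's exact test (two-sided, per region, Benjamini-Hochberg adjusted) called 153 members more often occupied in STAT5_High livers (27.4% of members), against a background of 0.979% of tested regions; every region called in that direction was a member, so the count describes the rule. It was 251 (of 485) without STAT5_High liver 4, 455 (of 614) with lists of equal length and 0 in an exact test stratified by collection (506 members at an unadjusted p under 0.05). In that stratified test even complete separation of the classes did not pass adjustment over 15631 regions, so its 0 is uninformative. The rule used the same contrast, so most members fall under that unadjusted limit by choice (499 in the main Fisher's exact test). Nothing is read from either unadjusted count. By occupancy, 133 members were in 8, 203 in 7 and 222 in 6 of the 8 STAT5_High livers, and 213 were in 0, 159 in 1 and 186 in 2 of the 10 STAT5_Low livers. The strictest corner, 8 of 8 and 0 of 10, held 47. Just inside the limits, 349 members were at 6 of 8 or at 2 of 10. Just outside them, 303 regions had a peak in 5 STAT5_High and at most 2 STAT5_Low livers, and 170 in at least 6 STAT5_High and 3 STAT5_Low livers.

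Which sites qualified depended on how far down each list peaks were counted. When every list was cut to its 18673 most significant peaks, the length of the shortest, 614 regions met the same rule, but only 104 of them were among the 558 members (16.9% of the 614, 18.6% of the 558). In the full lists the other 510 were occupied by a median of 8 STAT5_High livers and 8 STAT5_Low livers, with a median fold enrichment of 9.31 in the combined STAT5_High list and 4.86 in the combined STAT5_Low list. For the 558 members those medians were 7 STAT5_High livers and 1 STAT5_Low liver, and fold enrichments of 6.50 and 2.70. The STAT5 palindrome lay in 80.5% of the 558 members and in 77.8% of the 510.

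The rule did not use sequence, and most members held the STAT5 palindrome. TTCNNNGAA lay in 449 of 558 members (80.5%, 95% Wilson interval 77.0 to 83.5), against 20.2% of the 15073 other tested regions (19.5 to 20.8). It was in 11.3% of the 520 regions with the opposite pattern (peaks from 8 or more STAT5_Low livers and no more than 2 STAT5_High livers), in 28.8% of the 11748 wider regions open in all 18 livers, and in 20.3% of all 68362 regions. Per kb of sequence the members held 1.81 matches, against 0.44 in all tested regions, a ratio of 4.09. Median width was 595 bp in members and 566 bp in tested regions. Within 100 bases of the strongest summit the match was in 65.9% of members (61.9 to 69.8) and in 8.88% of the other tested regions (8.43 to 9.34).

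The share varied with occupancy. Among members it was 86.5% (Wilson interval 79.6 to 91.3) in those of 8 STAT5_High livers, 82.3% (76.4 to 86.9) in those of 7 and 75.2% (69.1 to 80.4) in those of 6. By STAT5_Low livers it was 82.6% (77.0 to 87.1) in members of 0, 83.0% (76.4 to 88.1) in those of 1 and 75.8% (69.2 to 81.4) in those of 2. Just inside the limits it was 77.4%, and just outside 65.7% in regions of 5 STAT5_High livers and 68.8% in regions of 3 STAT5_Low livers. Members seen in the sparse list of STAT5_High liver 4 held the match in 81.9% of cases, against 80.0% to 81.5% for members seen in each other STAT5_High liver.

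**Figure D2:**
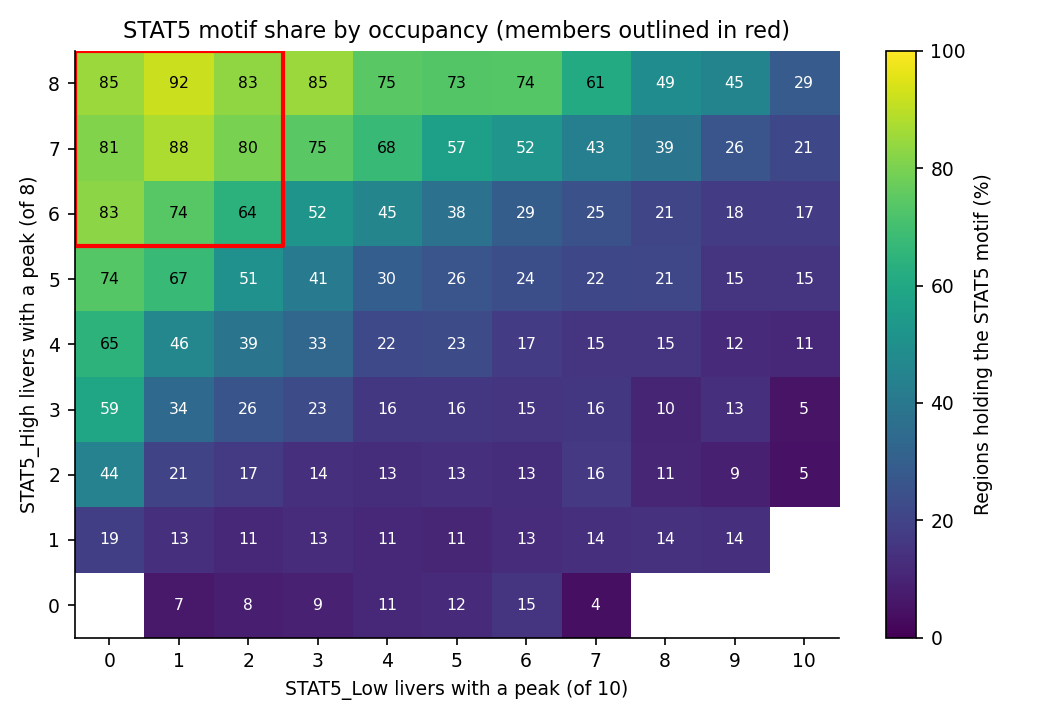
Share of regions that hold TTCNNNGAA (colour and printed value, %), by the number of STAT5_High livers (vertical axis, of 8) and STAT5_Low livers (horizontal axis, of 10) with a peak; combinations with fewer than 20 regions are blank. The members, outlined in red, fill the upper left corner, where the share is 64.4% to 92.1%, and in regions of 5 STAT5_High livers it is 73.8%, 67.3%, 50.6%, 40.7% and 29.7% at 0 to 4 STAT5_Low livers. In regions without a STAT5_High liver it is 6.72% at 1 STAT5_Low liver and 15.4% at 6.

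The match lay near the point of strongest cutting. In the 449 members with a match, the one nearest the strongest summit was a median of 36 bp from it and within 50 bp in 278 (61.9%). In other tested regions with a match the median was 116 bp and 28.0% lay within 50 bp, and in the regions with the opposite pattern the median was 197 bp. Members also held more than 1 match more often: 140 had at least 2 (25.1%), against 2.68% of other tested regions. Pairs of matches with 6 or 7 bases between them, a spacing known from STAT5 tetramers, were rare, in 4 members (0.717%) and in 9 of the other tested regions (0.0597%). The 4 were the Igf1 region shown above, an intronic Esr1 region, a region nearest 2310004N24Rik and a region nearest Gm4951.

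**Figure D3:**
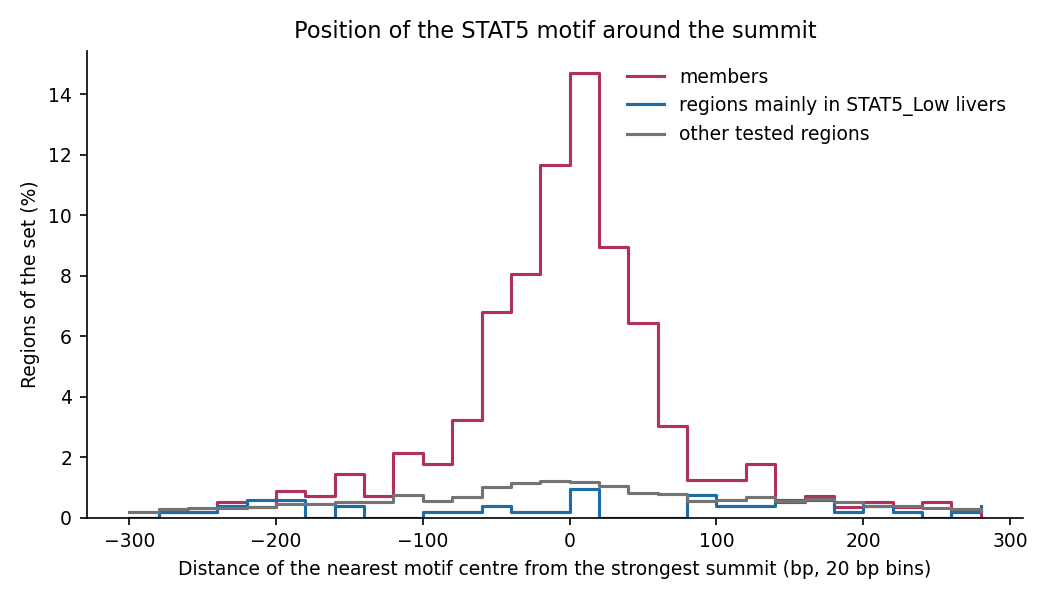
Distance of the nearest TTCNNNGAA centre from the strongest summit (horizontal axis, bp, in bins of 20 bp) against the share of regions of each set (vertical axis, %). The members reach 14.7% in the bin just past the summit; the other tested regions also rise there, with 0.199% in the first bin and 1.21% just before the summit, and the regions mainly in STAT5_Low livers stay below 1%; medians of the absolute distance are 36, 116 and 197 bp.

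The 3 central bases were not evenly used. In 363 of the 449 members with a match (80.8%, Wilson interval 77.0 to 84.2), the match nearest the summit had a pyrimidine after TTC and a purine before GAA, a form preferred by STAT5, against 53.9% (52.1 to 55.7) of other tested regions with a match. The commonest word was TTCCAGGAA, in 105 members (23.4%), followed by TTCTCAGAA in 54, TTCCAAGAA in 53, TTCCCAGAA in 52 and TTCCTAGAA in 51, each counted with its reverse complement. Among other tested regions with a match TTCCAGGAA was the word in 12.96%.

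Other sequences searched differed less. Rearrangements of the same letters were in 25.3% of members against 20.5% of other tested regions (CTTNNNAAG) and in 22.2% against 19.9% (TCTNNNAGA). The palindrome with 4 central bases in place of 3 was in 24.6% against 15.5%. A C/EBP site (TTGCNNAA) was in 39.1% (35.1 to 43.2) against 30.4%, a onecut site (ATCAATA or ATCGATA) in 18.6% (15.6 to 22.1) against 11.2%, an AP-1 site (TGANTCA) in 25.3% against 19.4%, and a forkhead site (TGTTTAC or TATTTAC) in 25.1% against 21.6%. The CTCF core (CCA, AG and GGC with 2 bases between each) was in 2.69% (1.64 to 4.39) against 8.88%, and an E-box (CACGTG) in 7.71% against 11.2%. Each was searched on both strands, and a match is a match of letters only.

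For the 109 members without the palindrome (19.5%), the median distance to a protein-coding start was 19477 bp, against 21006 bp in members with a match, and the median combined STAT5_High fold enrichment was 5.79 against 6.70. They were in all 8 STAT5_High livers in 16.5% of cases against 25.6%, and 26.6% held a onecut site against 16.7%. Among them were the regions named below for Socs2, Lifr, Pim1 and Gadd45g.

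Members lay mostly away from genes' starts. Only 38 (6.81%, Wilson interval 5.001 to 9.21) lay within 1 kb of an annotated start, against 15.6% of all tested regions, 17.7% of regions with the opposite pattern and 52.3% of regions open in all livers. By place, introns held 270 and intergenic sequence 229, while 11 lay in UTRs, 6 in coding and 4 in noncoding exons. The median distance to the nearest protein-coding start was 20509.5 bp (quartiles 7628 and 67857.5), against 15738 bp in all tested regions, 13540 bp in regions with the opposite pattern and 862 bp in regions open in all livers. Base composition was 42.7% GC at the median, against 46.4% in all tested regions. The nearest region open in all 18 livers was a median of 20176.5 bp away, and lay within 10 kb of 33.7% of members and 24.7% of all tested regions.

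**Figure D4:**
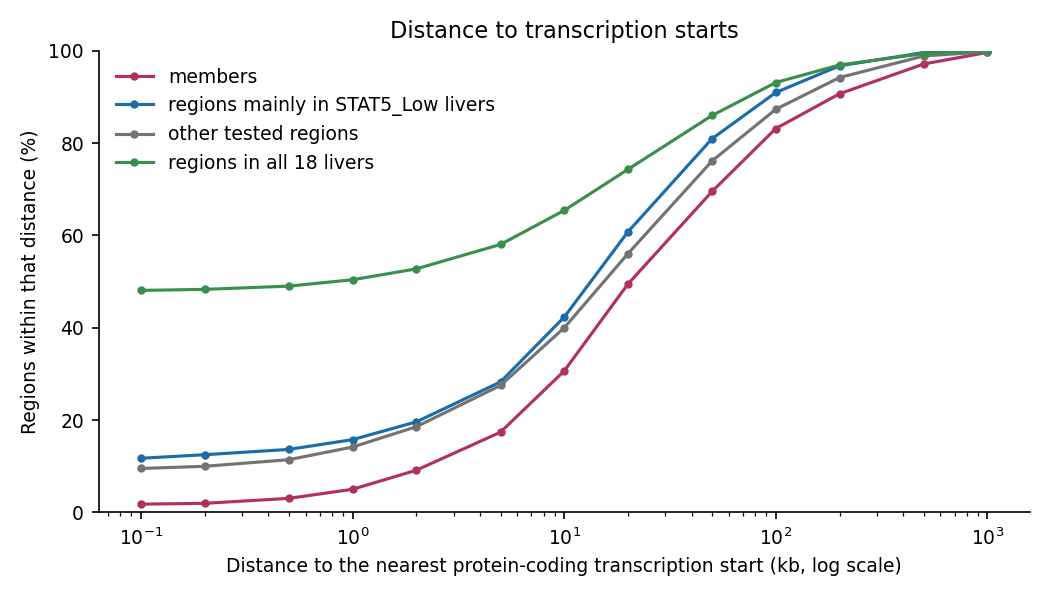
Share of regions (vertical axis, %) within a given distance of the nearest protein-coding transcription start (horizontal axis, kb, log scale). The curve of the members runs below those of the regions mainly in STAT5_Low livers, the other tested regions and the regions open in all 18 livers at every distance up to 100 kb.

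By combined STAT5_High fold enrichment, the leading members among the 38 at starts were Grb10, Rab3gap1 (a Rab GTPase-activating subunit) and a start near Usp40. A start near 1700042B14Rik came next, then Ddx39b, Akr1c21, Phf20, Olfr1357, Hsd3b1, Cmtm6, a start near Whsc1l1, and Niacr1. For Usp40, 1700042B14Rik and Whsc1l1 the start within 1 kb was that of Gm15375, Gm4997 and SNORA33. Their own protein-coding starts lay 15.6, 23.5 and 7.76 kb away. The ranks of Ddx39b and Cmtm6 rest on combined values far above those of their single livers. The start of Akr1c21, a hydroxysteroid dehydrogenase of the aldo-keto reductase family, had fold enrichments of 4.69 to 12.7 (median 8.33) in 7 STAT5_High livers and 4.98 in STAT5_Low liver 7. At Hsd3b1, which makes a steroid dehydrogenase and isomerase, they were 5.06 to 10.2 (median 8.20) in 6 STAT5_High livers and 4.27 in STAT5_Low liver 8. Every STAT5_High value at these starts except the lowest at Akr1c21 exceeded that of the STAT5_Low liver with a peak. The rule allows a peak in at most 2 STAT5_Low livers. Such comparisons of values, here and below, therefore rest on few STAT5_Low livers and were not tested.

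Members were scattered, with few clusters. They lay nearest to 514 protein-coding genes by transcription start, of which 481 had 1 member, 24 had 2, 7 had 3 and 2 had 4. Such a gene only names the site, since no target was measured. Chained at gaps of up to 100 kb, 443 members stood alone and 115 (20.6%) formed 55 chains, against 15.6% of the 520 regions with the opposite pattern. Only 4 chains held 3 or more members: 4 upstream of B3galt1, a galactosyltransferase, over 167007 bp, and 3 each at Grb10 over 31006 bp, in Thada with Zfp36l2 as the nearest start over 34944 bp, and at Igf1 over 106726 bp. The B3galt1 span held 15 union regions in all, 3 of them open in all 18 livers, and the Igf1 span 20, also with 3. By nearest start, B3galt1 and Myc led with 4 members, followed by Zfp36l2, Grb10, Macrod2, Igf1, Onecut1, Zbtb20 and Esr1 with 3, and Bach1, Tnik and Etaa1 were the strongest of those with 2.

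Feedback inhibitors of cytokine signalling held 3 members, 9.09% of the 33 tested regions near the 20 listed genes found in the annotation, against 3.57% of all tested regions. The gene lists were chosen with earlier results of these data known, so the share of each list, here and below, is a description only. The Socs2 site, 31.3 kb downstream of the start, was the strongest: fold enrichment was 4.84 to 9.52 (median 6.28) in 8 STAT5_High livers and 5.14 and 4.26 in STAT5_Low livers 4 and 7, so the classes overlapped where both had a peak. Cish, an early STAT5 target, had its site 474 bp upstream of the start, with 2.77 to 4.12 (median 3.54) in 6 STAT5_High livers and 2.74 in STAT5_Low liver 10. Near Socs3 the values were 2.63 to 3.96 (median 3.19) in 6 STAT5_High livers and 2.26 in STAT5_Low liver 7. The Cish and Socs3 sites hold the palindrome and the Socs2 site does not. These fold enrichments are the authors' ratios of summit reads to local background within a library and are not scaled between livers.

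The 3 members at Igf1, the growth factor that growth hormone induces in liver, were each present in all 8 STAT5_High livers but in 0 STAT5_Low livers, and made up 3 of 21 tested regions near the IGF axis list (14.3%). The site 62.1 kb upstream was the strongest, with fold enrichments of 6.05 to 13.1 (median 8.58), then the one 1.34 kb inside the gene, with 3.24 to 5.06 (median 4.16), and the one 40.6 kb inside, with 2.95 to 3.99 (median 3.19). All 3 held the palindrome, and the pooled STAT5_Low reads did give a peak at the first 2, with fold enrichments of 2.70 and 2.00 against 11.6 and 4.25 in the pooled STAT5_High reads. Grb10, which is in no list and was named for its number of members, is an adaptor that restrains insulin and IGF receptors; it had a member over an annotated start with 8.41 to 20.02 (median 13.2) in 8 STAT5_High livers and 7.11 and 4.05 in STAT5_Low livers 7 and 10, and weaker ones on each side. The growth factor receptor list held 5 of 72 tested regions (6.94%), 2 of them in the insulin receptor gene Insr. There, the stronger of 2 intronic sites had 5.13 to 14.6 (median 6.56) in 7 STAT5_High livers and 4.43 and 3.88 in STAT5_Low livers 7 and 10. At this Grb10 start and this Insr site neither STAT5_Low liver with a peak reached the lowest STAT5_High value. The weaker Insr site had 3.77 to 7.92 in 7 STAT5_High livers and 4.31 in STAT5_Low liver 8, so the classes overlapped. The other 3 members of the list fell under the receptor gene Fgfr2 only because its annotated model spans 3.01 Mb; their nearest starts were Acadsb, Tacc2 and Oat.

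Receptors of the IL-6 family held 3 of 20 tested regions (15%). Osmr, the oncostatin M receptor, had neighbouring sites 16.7 and 17.4 kb upstream that share 1 peak in the combined STAT5_High list, with a fold enrichment of 10.3. The one with the palindrome had 7.29 to 10.9 (median 7.66) in 7 STAT5_High livers and 5.69 and 3.91 in STAT5_Low livers 7 and 10. The intronic site of Lifr, the leukaemia inhibitory factor receptor, had 3.52 to 7.38 (median 5.13) in 8 STAT5_High livers and a peak in 0 STAT5_Low livers, without the palindrome. The list of growth hormone receptor, Janus kinase and STAT genes held 0 members among 38 tested regions, too few to set apart from the share of 3.57% over all tested regions.

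Liver transcription factors held 11 members of 118 tested regions (9.32%), with Onecut1 (3), Nr5a2 (2), Foxa1, Foxa2, Foxa3, Onecut2, Nr2f2 and Nfia as the nearest protein-coding starts. Several lay far from that start: 660 kb for Nr2f2, 258 and 320 kb for Nr5a2, 70.2 to 259 kb for Onecut1 and 81.3 kb for Foxa2. The others lay 1.31 to 22.1 kb from theirs. Foxa1, Foxa2 and Foxa3 encode forkhead factors that open chromatin: near Foxa1 fold enrichment was 2.39 to 6.15 (median 3.94) in 8 STAT5_High livers and no STAT5_Low liver had a peak. The site inside Foxa3 had 3.65 to 8.23 (median 6.84) in 7 STAT5_High livers and 3.07 in STAT5_Low liver 9. Onecut1, a homeobox factor of hepatocytes, had its strongest site 155 kb upstream, with 4.89 to 6.80 (median 6.11) in 7 STAT5_High livers and 2.93 and 2.80 in STAT5_Low livers 7 and 10. At these Foxa3 and Onecut1 sites the values of the 1 and 2 STAT5_Low livers with a peak lay below every STAT5_High value. The classes overlapped at 3 other sites. Of the distant sites assigned to Nr5a2, a nuclear receptor gene, the lowest STAT5_High value was 3.83 at one, against 5.21 in STAT5_Low liver 10. At the other it was 3.61, against 6.04 and 4.24 in STAT5_Low livers 7 and 10. Near Onecut2 it was 2.72, against 3.29 in STAT5_Low liver 6.

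Repressors linked to sex differences in liver held 5 of 53 tested regions (9.43%), 2 at Bcl6 and 3 at Zbtb20. Bcl6, which competes with STAT5 for sites, had an upstream site at 91.6 kb with fold enrichments of 3.07 to 10.1 (median 5.11) in 8 STAT5_High livers and 0 STAT5_Low livers, and an intronic site with 2.54 to 5.03 (median 4.26) in 8 STAT5_High livers and 2.33 in STAT5_Low liver 7. Zbtb20, a repressor of the fetal gene Afp, had its strongest site within 1.07 kb of a start, with a narrow range of 5.49 to 6.93 (median 6.06) in 8 STAT5_High livers and no peak in STAT5_Low livers or in the pooled STAT5_Low reads. Among nuclear receptors, members (3 of 64 tested regions, 4.69%) were all nearest Esr1, the oestrogen receptor.

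Immediate early and stress genes held 9 of 79 tested regions (11.4%), at Myc (4), Klf6 (2), Egr1, Gadd45g and Pim1. The member counted for Egr1 lay over the start of another gene, Gm17507. The 4 members for which Myc, the growth-promoting factor, was the nearest start lay 176 to 763 kb downstream of it, and 2 of them held the palindrome; the one at 176 kb was in 8 of 8 STAT5_High livers at 4.57 to 8.87 (median 5.96). Pim1, a kinase gene induced by STAT5 in blood cells, had a site 19.9 kb upstream with 3.74 to 12.3 (median 5.69), and Gadd45g, a stress gene, one 10.5 kb downstream with 4.04 to 11.7 (median 5.70). Both sites were found in all 8 STAT5_High livers and in 0 STAT5_Low livers.

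Genes that differ between the sexes held members in both directions of bias. Male-biased genes had 6 of 57 tested regions (10.5%), at Nudt7 (2), Cyp7b1, C8a, C8b and Moxd1, and female-biased genes 2 of 36 (5.56%), among them Cyp2c69, against 3.57% of all tested regions; the difference between the lists was not tested. Upstream of Cyp7b1, whose enzyme hydroxylates oxysterols on the way to bile acids, a site 2.66 kb from the start had 3.33 to 6.36 (median 5.04) in 8 STAT5_High livers and a peak in 0 STAT5_Low livers. Moxd1 had 4.11 to 9.18 (median 8.05) in 8 STAT5_High livers and 3.75 and 3.61 in STAT5_Low livers 7 and 10, at a site 139 kb from its start. The Cyp2c69 site had 5.36 to 10.1 (median 6.58) in 6 STAT5_High livers and none in STAT5_Low livers.

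In metabolism, lipid genes held 4 of 48 tested regions (8.33%), among them sites at the fatty acid binding protein gene Fabp1, the acetyl-CoA carboxylase gene Acacb and the elongase gene Elovl5. At Fabp1, 6.08 kb upstream, fold enrichment was 4.90 to 7.84 (median 5.44) in 8 STAT5_High livers and 2.72 and 2.76 in STAT5_Low livers 6 and 10. Bile acid genes held 2 of 30 (Cyp7b1 and the conjugating enzyme gene Baat) and hepatocyte markers 1 of 32, downstream of the fibrinogen gene Fgg. The lists of glucose and amino acid genes (41 tested regions), the circadian clock (29) and the acute phase (19) held 0 members, too few regions to set apart from the 3.57% of all tested regions. In all, 56 of the 817 tested regions near a listed gene were members (6.85%, against 3.57%). The lists were chosen with earlier results of these data known, so nothing is read from this difference.

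The strongest members by combined STAT5_High fold enrichment lay mostly near genes outside these lists. St6gal1, which adds sialic acid to glycoproteins, led with 17.3 in the pooled STAT5_High reads and 4.03 in the pooled STAT5_Low reads. In single livers it had 10.6 to 19.9 (median 14.9) in 8 STAT5_High livers and 7.22 and 3.26 in STAT5_Low livers 7 and 10. The livers with a peak did not overlap between classes there. Bach1, a haem-regulated repressor, had a site 70.6 kb upstream with 7.85 to 21.1 (median 11.7) in 8 STAT5_High livers and 5.87 in STAT5_Low liver 10, and no palindrome. The Thada intron with Zfp36l2, an mRNA decay factor, as nearest start had 8.94 to 19.2 (median 12.9) in 8 STAT5_High livers and 4.39 and 6.76 in STAT5_Low livers 2 and 7. The others of the first 12 were nearest Mpp7, Grb10, Gm9887, Gm10113, Spon1, Lrp1b, Acnat2, Kcnip4 and Celf2, and the 12 ran from 14.0 to 17.3, against 2.55 to 3.28 for the 12 weakest members.

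Within the lists of single STAT5_High livers the members were, as a set, of moderate strength. Their median fold enrichment was 5.71 ± 0.71 in STAT5_High lists (SD, n = 8), against list medians of 6.13 ± 0.21, which put them at a median percentile of 43.1 within their lists. All tested regions had a median of 4.91 ± 0.32 in the same lists. Members with a peak in a STAT5_Low liver had 4.21 ± 0.28 (SD, n = 10) there and a median percentile of 20.1. The combined lists, called by the authors on the pooled reads of a class, showed the sites that single STAT5_Low livers missed. All 558 were in the combined STAT5_High list (median fold enrichment 6.50) and 442 (79.2%) in the combined STAT5_Low list (median 2.70), although 213 had a peak in no single STAT5_Low liver. Their median percentile in the combined STAT5_High list was 71.2, against 48.9 for all tested regions, a difference that the rule favours. Of the 442 in both, 436 (98.6%) had the higher fold enrichment in STAT5_High, with medians of 6.58 and 2.70. The pooled reads came from the same livers that the rule used, so this direction largely follows from the rule. The share was 3.67% of 518 regions with the opposite pattern and 38.2% of 15347 tested regions in both lists. Regions open in all livers had medians of 10.1 and 9.86, and all tested regions 4.06 and 4.27. The pooled reads numbered 128701824 in STAT5_High and 184748725 in STAT5_Low, and the combined lists have no replicates.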

How the data were processed

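Open chromatin was measured by DNase-seq in single livers, and 18 per-liver peak lists and 2 combined lists were used. The members and gene lists were chosen with earlier results of these data known. Per the file headers, peaks were called with MACS2 2.1.0.20150731 without a control library, with duplicates kept, a shift of -100, an extension of 200 and a q cutoff of 0.05; the submitters' processing notes list Bowtie2 and mm9. As deposited, fold enrichment is a ratio, summit reads over local background within a library. The pileup the authors deposited is a coverage signal, extended reads overlapping a summit, and the deposited −log10 q is a peak's significance in its list. None is scaled between libraries, so tests between livers used presence, and fold enrichments of livers are set side by side as a description. For the combined lists the authors pooled the reads of a class, per the file headers.

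Peaks sharing 1 bp were merged, and a liver occupied a region where its list held a peak. Regions occupied in 5 to 13 of 18 livers, where the smallest possible p is at most 0.01, were tested with Fisher's exact test and Benjamini-Hochberg adjustment (threshold 0.05), after the steps had been tested on simulated data. Correlations used exact permutations below 10 livers and 100000 resamples at 10. Intervals are 95% Wilson intervals and cover counting error only. Genes and starts came from the GENCODE annotation of NCBIM37, in which 343 of 349 listed names matched; a region belonged to a listed gene when it overlapped it, lay within 10 kb or had its start as the nearest. Sequences are reference sequences, and variants of the outbred stock were not considered. Python 3.11.15, scipy 1.17.1, pandas 2.3.3 and pysam 0.24.0 were used.

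Named were the 12 genes nearest to the most members, the 12 members of highest combined STAT5_High fold enrichment and, in range only, the 12 of lowest, up to 4 members per gene list, up to 12 members within 1 kb of a start, the 5 farthest from a start and the 6 densest chains. Some named members are not reported here. The same replicate number in both classes marks no shared animal in the labels. P-values measure the spread between these livers. Alternatives were another overlap for merging, a stricter −log10 q, equal numbers of top peaks, other limits of the rule, other windows and motifs, an exact test stratified by collection, a replicate block and leaving out each liver or collection.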

Additional observations from a re-analysis of the deposited data

Results flagged for a closer look

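In 10 comparisons of 1 liver with the others of its class (members with a peak, their median fold enrichment and percentile, list length and tags in each class), STAT5_High liver 4 stood apart in 2, and about 1 in 20 such comparisons would by chance. It had a peak at 282 members, with a gap to the next liver of 0.62 of the range of the class (limit 0.526 for 8 livers). Its list held 18673 peaks, with a gap of 0.55 of the range. Its 15578398 tags lay within the range of the other STAT5_High livers, 13815438 to 17504539, and the part of list length in the count of members was not tested. Without this liver 485 sites met the rule as shares, all of them among the 558, 80.8% held the palindrome, and 251 of them were called by Fisher's exact test.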

How the results depend on the processing

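Merging at 100 bp or more gave 563 members, 556 of them shared, and leaving out a collection gave 511 to 594. With 7 STAT5_High livers and 1 STAT5_Low liver as limits, 209 qualified and 85.6% held the palindrome. The palindrome share was 65.9% within 100 bases of the summit and 24.6% with 4 central bases. The share at starts was 9.63% with −log10 q of at least 5, 9.61% with equal numbers of top peaks and 13.4% within 2.5 kb. Against 153 called members, 455 were called with equal numbers of top peaks (8173 regions tested) and 0 with strata by collection (smallest adjusted p 0.0775 in that exact test). Complete separation of the classes gives the smallest p the stratified test can reach. It did not pass adjustment, so the 0 of the stratified test is uninformative. Same-numbered livers did not deviate together (r over 8 pairs -0.077 to 0.19, and 1 of 8 correlated best with its own number). Some of these pairs joined livers of different collections. An exact sign test with the replicate block over the pairs called 0 members, with 416 at an unadjusted p under 0.05. With 8 pairs the smallest possible p of that test could hardly pass adjustment over 15631 regions, so its 0 is uninformative. The rule itself favours a low unadjusted p in members.

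Leaving out 1 liver, with limits as shares, gave 344 to 485 members, 156 to 251 called, 80.1% to 83.9% with the palindrome, 6.28% to 7.10% at starts, r from -0.60 (without STAT5_High liver 4) to 0.88 in STAT5_High and 0.36 to 0.69 in STAT5_Low, and ranges of collection means of 9.67 to 18.2 and 6.83 to 16.3 points. Fewer livers tighten the limits. Without STAT5_High liver 4 and STAT5_Low livers 7 and 10, chosen after the data were seen, 531 qualified, 461 of them shared, 438 were called, 81.0% held the palindrome, r in STAT5_High was -0.58 and the range of its collection means 10.8 (exact permutation p = 0.0286). Of the 91 named members, 57 to 79 still met the rule without any 1 liver, 33 with equal numbers of top peaks and 69 at the stricter q. All 91 were present at least as often in STAT5_High as in STAT5_Low livers in the 22 settings run for them. The rule chose them for that difference in the same livers, so this direction largely follows from the rule. The causes of these changes were not tested.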

Other observations

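Of the 442 members in both combined lists, 6 had the higher fold enrichment in STAT5_Low: those nearest Ddx39b (10.6 in STAT5_High and 11.1 in STAT5_Low), Cmtm6 (8.12 and 9.01), Ifltd1 (6.79 and 7.24), Mrps6 (5.53 and 6.96), Baat (4.08 and 4.46) and Pex26 (3.79 and 3.92). They were named after their values were seen. At Ddx39b, an RNA helicase gene, single STAT5_High livers had only 2.17 to 4.04 (median 2.98), and no STAT5_Low liver had a peak in the region. The same held at Cmtm6, with 3.21 to 4.86 in single STAT5_High livers. A combined value is that of the most significant combined peak sharing 1 bp or more with the member. The summit of that peak may lie outside the member, so these combined values may belong to a neighbouring site, which was not tested.

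The 5 members farthest from a protein-coding start were nearest Prmt6, Celf2, Sorcs3, Diap2 and Cntnap5b. The Celf2 site, 1043 kb from the start of this RNA-binding protein gene, was also among the 12 strongest, with fold enrichments of 7.503 to 15.1 (median 8.84) in 8 STAT5_High livers and 5.46 in STAT5_Low liver 6. The Cntnap5b site was in 7 STAT5_High livers, at 3.90 to 6.59 (median 5.68), and in 0 STAT5_Low livers.

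The livers also differed in the 520 regions with the opposite pattern. STAT5_High livers 1 and 2, both of collection G74A, had a peak at 47.7% and 41.3% of them, and the other 6 STAT5_High livers at 0.769% to 27.3%. The same livers 1 and 2 had a peak at 80.1% and 81.2% of the members.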
